A study of Mus musculus with 7 samples.

Results

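In J1 cells, a line of mouse ES cells, 24442 narrow domains enriched for 5-formylcytosine (5fC) lay in distal intergenic sequence. They were narrow in the wild-type replicate bham359_362 and lay inside enriched domains of the replicate bham470. They were selected on the wild-type domain calls. Each is an autosomal enriched domain of the replicate bham359_362 that is 300 to 1500 bp wide, lies entirely in an enriched domain of the replicate bham470, touches no gene body of GENCODE release M1 (mm9) and is at least 10 kb from any transcription start site (TSS). They make up 6.27% of the 389620 enriched domains of bham359_362 and cover 19.2 Mb. Their narrowness rests on bham359_362 alone, whose enriched domains had a median width of 700 bp. That median was 8200 bp in bham470 and 5900 to 24550 bp in the libraries of siRNA-treated cells. Of the 241947 narrow autosomal domains, 117606 lay outside gene bodies and 90990 were distal intergenic, and 26.9% of the latter met the last condition. A further 63887 distal intergenic narrow domains touched no enriched domain of bham470 and serve here as the comparison set, and 2661 were partly in one and were left out.

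5fC is made in steps by the TET dioxygenases, which oxidize 5-methylcytosine to 5-hydroxymethylcytosine, then to 5fC and then to 5-carboxycytosine. Thymine DNA glycosylase (TDG) removes the last of these forms and 5fC, and base excision repair restores an unmodified cytosine. Distal intergenic sequence includes enhancers, which act on promoters over long distances and at which methylation can turn over in ES cells. A domain of this pulldown marks a stretch of enriched DNA and does not show that the stretch is an enhancer.

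5fC was labeled with a biotin-bearing aldehyde reactive probe, pulled down and sequenced in 6 libraries, 2 for each of 3 conditions, all compared with 1 genomic input library of untreated J1 cells. Wild-type J1 cells (129S4/SvJae) were grown on a γ-irradiated feeder layer of mouse embryonic fibroblasts and received no siRNA (bham359_362 and bham470). The siRNA cultures were the same line without feeders, transfected in 3 rounds with non-targeting siRNA (siRNA control, bham479 and ear001) or with a pool of siRNAs against Tdg (TDG KD, bham480 and ear003). A knockdown lowers Tdg and does not delete it, and these DNA pulldowns hold no expression data by which the cell type or the level of Tdg could be checked. The pulldowns had 20.4 to 45.9 M (mega) uniquely placed reads and the input 26.5 M. The TDG KD library bham480 had the fewest reads and 504.9 Mb in the state unconfident, which the caller gives where it can choose neither enriched nor background. In the remaining pulldowns this state took 0.214 to 6.30 Mb. BHAM and EAR are prefixes in the names of the siRNA libraries, with 1 library of each siRNA condition under each prefix.

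The sequences of 6 members are shown because the results below turn on their composition and on the libraries in which they were enriched. Each run is at most 300 bases of the mm9 plus strand, 5′ to 3′, from the most CpG-dense stretch of the member, and capitals mark CpG, the dinucleotide in which most cytosine methylation and its oxidized forms occur. No 40-base stretch that was looked up in these runs occurred a second time in the sequence. Members are called by the nearest protein-coding gene, which need not be the gene they act on. The member near Cplx2 (chr13:54398218-54398517) is 1 of the few with CpG island composition, and Cplx2 encodes complexin 2, which acts in the release of synaptic vesicles. The others are near Plec (chr15:75993043-75993342), for plectin, which links the cytoskeleton, near Fgf4 (chr7:152062217-152062516), a growth factor of ES cells, and near Hand1 (chr11:57633623-57633922), a transcription factor of heart and trophoblast. The last 2 are near Dnmt3a (chr12:3917409-3917708), a de novo DNA methyltransferase, and near Pax3 (chr1:78204939-78205238), a regulator of neural crest and muscle.
Cplx2 member: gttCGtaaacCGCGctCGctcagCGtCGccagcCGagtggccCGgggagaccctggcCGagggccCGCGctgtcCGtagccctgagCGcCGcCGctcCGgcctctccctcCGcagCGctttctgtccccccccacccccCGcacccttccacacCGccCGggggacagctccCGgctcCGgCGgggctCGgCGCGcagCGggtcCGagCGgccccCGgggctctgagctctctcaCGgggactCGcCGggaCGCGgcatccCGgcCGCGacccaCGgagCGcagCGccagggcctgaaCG
Plec member: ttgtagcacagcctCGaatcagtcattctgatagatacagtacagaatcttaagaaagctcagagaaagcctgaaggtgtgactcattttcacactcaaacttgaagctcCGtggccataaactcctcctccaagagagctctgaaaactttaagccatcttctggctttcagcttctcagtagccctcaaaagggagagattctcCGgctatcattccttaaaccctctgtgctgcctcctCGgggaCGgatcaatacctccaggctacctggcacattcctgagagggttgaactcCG
Fgf4 member: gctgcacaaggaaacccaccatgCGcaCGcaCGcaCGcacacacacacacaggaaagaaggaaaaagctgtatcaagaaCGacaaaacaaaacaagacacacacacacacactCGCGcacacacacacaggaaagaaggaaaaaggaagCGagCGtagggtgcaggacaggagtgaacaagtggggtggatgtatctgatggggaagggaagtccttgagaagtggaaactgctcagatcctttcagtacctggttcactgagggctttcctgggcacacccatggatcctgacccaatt
Hand1 member: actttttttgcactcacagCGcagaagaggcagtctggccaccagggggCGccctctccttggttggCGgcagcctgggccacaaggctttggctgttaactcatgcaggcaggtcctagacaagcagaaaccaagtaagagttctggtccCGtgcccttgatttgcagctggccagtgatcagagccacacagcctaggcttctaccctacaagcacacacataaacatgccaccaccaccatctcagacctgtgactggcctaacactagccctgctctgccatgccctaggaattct
Dnmt3a member: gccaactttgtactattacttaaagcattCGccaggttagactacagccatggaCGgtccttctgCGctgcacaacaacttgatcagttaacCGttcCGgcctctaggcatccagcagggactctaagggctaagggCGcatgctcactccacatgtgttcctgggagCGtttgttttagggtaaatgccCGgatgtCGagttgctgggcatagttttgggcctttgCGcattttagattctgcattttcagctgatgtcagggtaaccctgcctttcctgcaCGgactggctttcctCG
Pax3 member: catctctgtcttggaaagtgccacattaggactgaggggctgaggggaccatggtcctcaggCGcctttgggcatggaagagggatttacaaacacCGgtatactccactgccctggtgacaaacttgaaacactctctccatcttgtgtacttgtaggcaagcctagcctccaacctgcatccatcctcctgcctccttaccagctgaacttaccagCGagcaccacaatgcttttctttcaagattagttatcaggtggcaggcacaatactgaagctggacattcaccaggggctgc
The Cplx2 run held 43 CpG, the Dnmt3a run 12, the Fgf4 run 9, the Plec run 6, the Hand1 run 4 and the Pax3 run 3. In the Fgf4 run several of the CpG lie in and beside a CA repeat.

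The members had a median width of 700 bp, with quartiles of 500 and 1100 bp. Their median distance to the nearest TSS of any gene was 37.6 kb, with quartiles of 20.1 and 77.1 kb, and 4435 of them (18.1%) were more than 100 kb away, up to 688.1 kb. The median domain value, given by the caller as pulldown minus input reads averaged over the 100 bp bins, was 3.12 in bham359_362 and 0.517 in bham470. In the comparison set it was 3.29 and -0.0695, the last being fixed by the rule. The values of the replicates are not on one scale of depth. At the limits of the rule, the 2681 domains 300 bp wide had a median value of 3.91 in bham359_362 and the 2551 domains 200 bp wide, just outside, 4.5. The 1016 domains 1500 bp wide had a median of 2.75, and so did the 961 domains of 1600 bp. Between 10 and 11 kb from a TSS there were 770 members, and 773 otherwise like them lay between 9 and 10 kb.

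The members were clustered. They lay in 8451 enriched domains of bham470, 29.9% of its 28311 autosomal domains, and 21316 members (87.2%) shared such a domain with another member. Over members, the domain of bham470 around them had a median width of 23.1 kb, and the median gap to the next member was 4.5 kb. The fullest domain of bham470, at chr8:94286747-94454646 near Irx3, held 37 members. Members of 1 broad domain share their call in bham470 and often in the siRNA libraries, and they are not independent of each other.

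A member was counted as enriched in an siRNA library when at least 50% of its length lay in that library's enriched domains. In the siRNA control 69.98% of members were enriched in bham479 and 62.3% in ear001. In the TDG KD 16.0% were enriched in bham480 and 70.3% in ear003. Of all 241947 narrow autosomal domains of bham359_362, 37.1% were enriched in bham479 and 33.1% in ear001, and 7.93% in bham480 and 38.5% in ear003. In bham480 57.9% of the members were in the state unconfident, against at most 0.409% in the other siRNA libraries, so a member that was not called there was mostly not called background either.

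The comparison set was enriched less often in each siRNA library. Its share was 18.9% in bham479 and 15.6% in ear001, and 3.12% in bham480 and 18.6% in ear003. The share of members was 3.71, 3.99, 5.12 and 3.77 times as high in the same order. The mean difference was 40.6 percentage points over the 4 libraries, with members higher in 4 of 4 (exact two-sided sign-flip permutation test, p = 0.13, the smallest that 4 libraries allow). Without bham480 the difference was 49.8 points. The siRNA libraries took no part in the selection, but all 6 pulldowns were called against the same input library, and its part in the difference was not tested.

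Distal intergenic members did not stand apart from narrow domains elsewhere that also lay inside domains of bham470. The gene body set held the 21983 such domains that lay wholly in gene bodies and at least 10 kb from any TSS. Of these, 69.96% were enriched in bham479 and 64.0% in ear001, and 15.5% in bham480 and 71.5% in ear003. Members minus these domains came to between -1.63 and 0.451 points. Among 6894 narrow domains within 1 kb of a TSS, also inside domains of bham470, the shares were 68.0%, 63.7%, 17.96% and 77.9%. The widest gap to the promoter domains was in ear003, where members minus promoter domains came to -7.66 points. These differences were not tested.

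**Figure D1:**
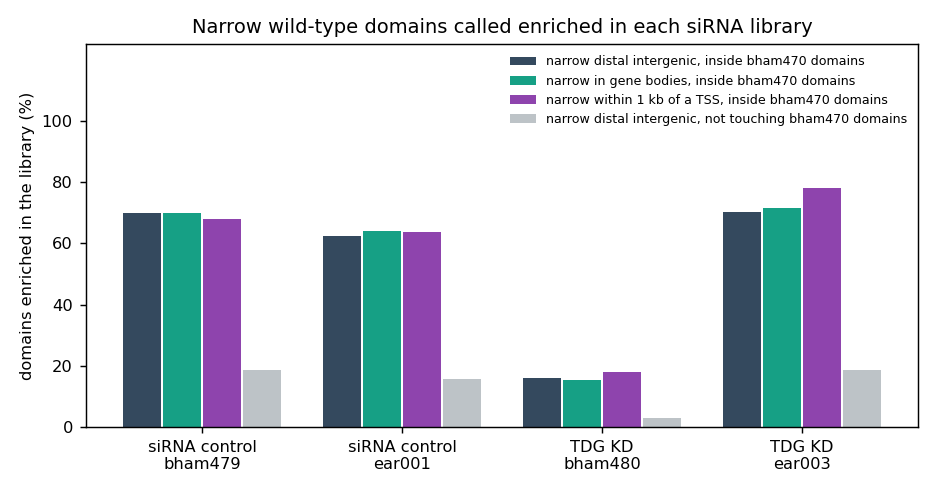
Percentage of narrow wild-type domains (y axis) called enriched in each of the 4 siRNA libraries (x axis), for the distal intergenic members, narrow domains in gene bodies and narrow domains within 1 kb of a TSS, all inside domains of bham470, and for distal intergenic domains that touch none. The gene body domains lie wholly in gene bodies and at least 10 kb from any TSS. Each bar is 1 library, so there is no error bar. The members stand at 69.98, 62.3, 16.0 and 70.3%, close to the gene body domains and above the grey comparison set.

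The signal of the siRNA libraries around the members was broad. In bham479 the centre of the member was enriched at 69.9% of members and the position 20 kb upstream along the chromosome at 57.1%. In ear001 these shares were 62.3% and 55.2%, in bham480 16.0% and 14.5%, and in ear003 70.2% and 54.996%. The centre was thus above the flank in each library, by the most in ear003. At the centres of the comparison set ear003 was enriched at 18.6%, against 15.9% at 1 kb on either side, while ear001 was enriched at 15.6% and 15.4%. Unlike the members, the comparison set was enriched more often 20 kb upstream than at its centres in every siRNA library. Its share that far upstream was 19.05% for ear003 and 17.3% for ear001. For bham480 it was 3.56%, against 3.11% at the centres, and for bham479 20.1%, against 18.8%.

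**Figure D2:**
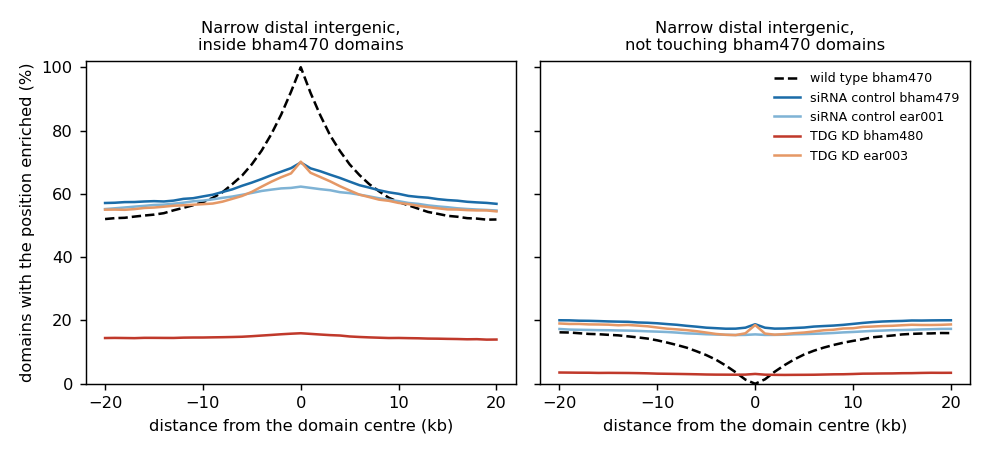
Percentage of domains that are enriched at the stated distance from the centre (x axis, kb), which is to say that the position lies in an enriched domain of wild-type bham470 or of an siRNA library (y axis), for the members (left) and for the same kind of domain not touching bham470 domains (right). The 100% and 0% of bham470 at the centre are fixed by the rule; the siRNA libraries fall slowly on either side of the members, from 69.9 to 57.1% in bham479 at 20 kb.

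Within the domains of bham470, the siRNA libraries were hardly more enriched at the members than beside them. The rest of the distal intergenic sequence of the same domains, 61.3 Mb that was not enriched in bham359_362, was compared with the members by base pairs. Base pairs were pooled over these domains and not matched by domain or by its width, with which enrichment rose. In bham479 71.4% of the members' sequence and 66.8% of the rest was enriched, in ear001 63.4% and 62.4%, in bham480 16.5% and 16.1%, and in ear003 72.0% and 63.4%. Members were higher in 4 of 4 libraries, by a mean of 3.69 points (exact two-sided sign-flip permutation test, p = 0.13, the smallest that 4 libraries allow). For members of 300 to 700 bp the mean difference was 0.0126 points (p = 1 by the same exact test), and for those of 800 to 1500 bp it was 5.43. Both widths were set against the rest of the domains of all members. They are therefore not comparisons within the domains that hold members of that width.

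The members also differed from the rest of these domains in base composition, with 48.7% GC against 44.3%. Counted as regions, members minus 66794 windows of 700 bp from the rest, of any GC, averaged 3.88 points over the 4 libraries. Within bands of GC the members were level with such windows or below them in most libraries. Between 45 and 50% GC 68.4% of 13407 members were enriched in bham479 and 69.4% of 25313 windows, and in ear003 67.7% and 68.0%. In the same band members minus windows came to -3.41 points in ear001 and -2.11 points in bham480. Between 50 and 55% GC members exceeded the windows by 1.25 points in ear003 and were lower in the other libraries. Over the 4 libraries members minus windows averaged -1.70 points between 45 and 50% GC. The comparison with windows was added after the values were seen and was not tested. It was banded by GC and not by the width of the bham470 domain.

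The members were richer in G and C than the sequence around them and poor in CpG. Their median GC was 48.7% (quartiles 46.6 and 50.8%), against 44.9% in the 1 kb on either side. It was 47.2% in the comparison set and 48.9% in narrow domains of gene bodies. The median CpG density was 1 per 100 bp in the members, 0.9 in their flanks, 0.833 in the comparison set and 1.21 in gene bodies. The observed to expected CpG ratio had a median of 0.185 in the members and 0.184 in the flanks, so the members held more G and C without being less depleted of CpG. Of all members, 75 (0.307%) had both over 50% GC and a CpG ratio over 0.6, the composition of CpG islands, against 0.280% of the comparison set. Another 343 (1.403%) held no CpG at all on the mm9 sequence. The call of bham359_362 chose the members, and the part of GC content in its calls was not tested.

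**Figure D3:**
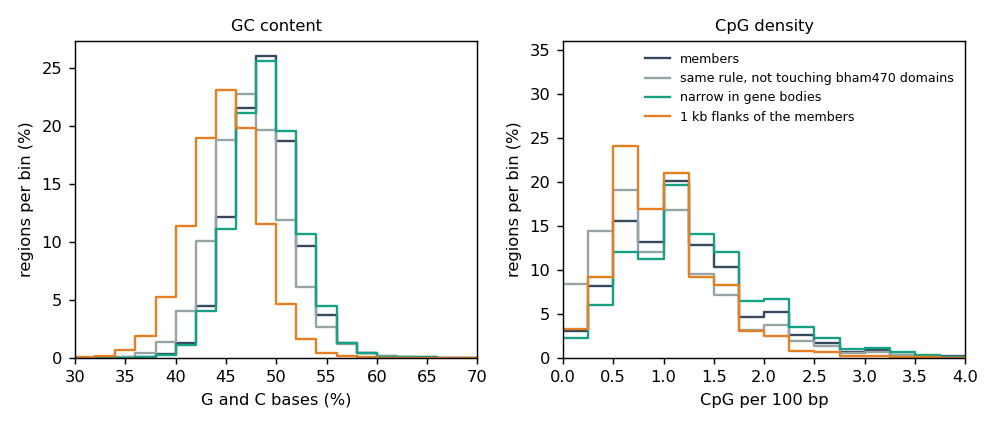
Distribution of GC content (left, % of bases) and CpG density (right, CpG per 100 bp) over the members, the distal intergenic domains not touching bham470 domains, narrow domains in gene bodies and the 1 kb flanks of the members, as a percentage of regions per bin (y axis). The members peak at higher GC than their flanks, with medians of 48.7 and 44.9%.

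The 5 members with the most CpG per 100 bp were island-like and lay near Cldn9 (a claudin of tight junctions), Tarsl2 (a threonyl-tRNA synthetase-like protein), Cplx2, Nup210 (a nuclear pore protein) and Chd7 (a chromatin remodeler). The member near Cldn9, chr17:23836515-23837514, had 11.3 CpG per 100 bp, 71.3% GC and a CpG ratio of 0.899. It was enriched in both siRNA control libraries, unconfident in bham480 and background in ear003. The member near Tarsl2, chr7:72671694-72672893, had 10.2 CpG per 100 bp and was enriched in bham479 and ear003 and background in ear001 and bham480. Those near Cplx2 and Nup210, with 10 and 9.33 CpG per 100 bp, were enriched in both control libraries and ear003 and unconfident in bham480. The member near Chd7, with 9 CpG per 100 bp, was enriched in ear003 alone. None of the 5 was enriched in all 4 siRNA libraries.

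Short sequence motifs were counted on both strands in the central 300 bp of each region. The octamer TTTGCAT, bound by POU factors such as Oct4, was in 5.20% of members, 5.62% of the comparison set and 4.91% of gene body domains. The Sox motif CATTGT was in 16.0%, 17.2% and 15.5%. The nuclear receptor motif AAGGTCA, bound by Esrrb among others, was in 6.84%, 6.27% and 6.43%, and GGGTGTG, the CACCC box of Klf factors, in 8.45%, 7.82% and 8.19%. The GC box GGGCGG, bound by Sp and Klf factors, was in 4.19% of members, 3.23% of the comparison set and 4.59% of gene body domains. The shares of the sets lay close together for each motif. The octamer and the Sox motif were rarer and the others more frequent in the members than in the comparison set. The part of GC content in these differences was not tested. At least 1 CpG was present in the central 300 bp of 92.8% of members, 87.6% of the comparison set and 94.1% of gene body domains.

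Members in wide domains of bham470 were enriched most often in the siRNA libraries. In domains under 10 kb 50.1% of 5301 members were enriched in bham479 and 35.4% in ear001, and 8.39% in bham480 and 52.8% in ear003. In domains of at least 100 kb, which held 3006 members, the shares were 90.9%, 92.8%, 42.5% and 90.3%. The share rose at each step of width in every library. In ear003 the share also rose with GC at each step, from 49.5% of the 111 members under 40% GC and 55.3% of those between 40 and 45% to 83.1% of the 804 members of at least 55%. In the lowest, the next and the highest of these bins bham479 had 63.1%, 60.8% and 73.0%, ear001 60.4%, 54.7% and 66.5%, and bham480 16.2%, 12.2% and 19.3%, so the lowest bin was above the next in these libraries. Distance from the TSS made little difference, with 69.2% of members within 20 kb and 71.03% of those beyond 100 kb enriched in bham479, and 71.2% and 69.5% in ear003. In ear001 the share fell from 65.2% to 60.3%.

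**Figure D4:**
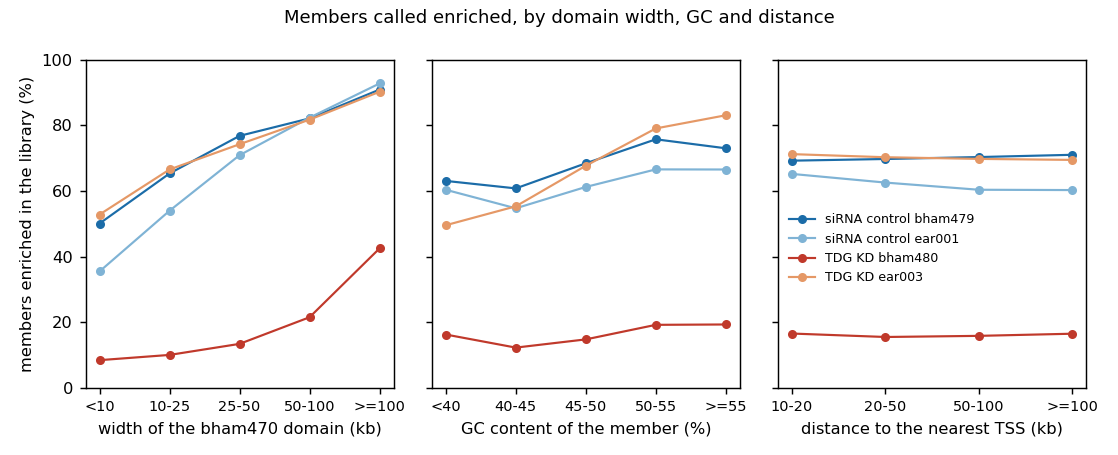
Percentage of members enriched in each siRNA library (y axis) by the width of the surrounding bham470 domain (left, kb), by GC content (middle, %) and by distance to the nearest TSS (right, kb). Points are single libraries; the share rises with domain width, in bham479 from 50.1 to 90.9%, and hardly moves with distance.

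Chromosome 8 stood apart in the siRNA libraries. It held 2340 members, 38.7% of its distal intergenic narrow domains, and 98.5% of them were enriched in bham479 and 98.2% in ear001, and 50.9% in bham480 and 94.7% in ear003. The comparison set on chromosome 8 was raised too, at 61.0%, 67.7%, 14.8% and 51.3%. Chromosome 11 came next in bham479, ear001 and ear003, with 82.4%, 78.2% and 80.9% of its members enriched, and chromosome 3 was lowest, with 54.0%, 39.5% and 54.7%. Without chromosome 8 the shares of members were 66.96% in bham479 and 58.5% in ear001, and 12.3% in bham480 and 67.7% in ear003, and the difference from the comparison set was 39.3 points. The part of chromosome 8 as a whole in these calls was not tested further.

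**Figure D5:**
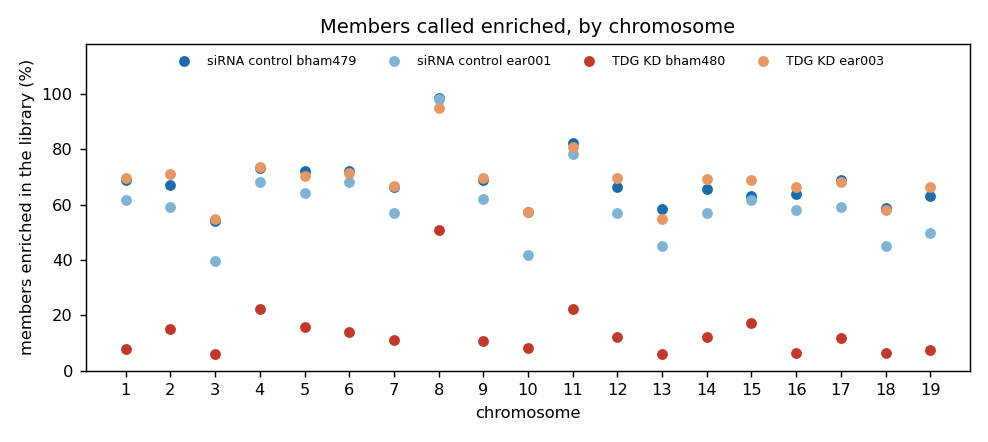
Percentage of the members of each autosome (x axis) enriched in each siRNA library (y axis), 1 point per library. On chromosome 8 the points stand at 98.5, 98.2, 50.9 and 94.7%, above every other chromosome.

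Over the members, TDG KD and siRNA control did not differ beyond the spread between libraries. The share enriched was 66.2% ± 5.41 (SD, n = 2) in the control and 43.1% ± 38.4 (SD, n = 2) in the TDG KD, a difference of -23.0 points (exact two-sided permutation test, p = 1, where 2 libraries against 2 cannot go below 0.33). Within the BHAM prefix the TDG KD minus the control was -54.0 points, and within the EAR prefix it was 7.93 points. Without bham480 the difference was 4.11 points, and with unconfident members left out of each library -12.2 points. The mean excess takes the mean of the library off the domain value and divides by its M reads. In reads per bin it was 0.0104 in bham479 and 0.00539 in ear001, and 0.00601 in bham480 and 0.0142 in ear003. It averaged 0.00790 ± 0.00355 (SD, n = 2) in the control and 0.0101 ± 0.00577 (SD, n = 2) in the TDG KD (exact two-sided permutation test, p = 0.67). The difference of 0.00219 was -0.00440 within the BHAM prefix and 0.00878 within the EAR prefix. The libraries of the TDG KD lay on either side of the control by share, and overlapped it by excess.

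Of the members, 2820 (11.5%) were enriched in all 4 siRNA libraries, against 4.82% of all narrow autosomal domains. Without chromosome 8 there were 1682, and without bham480 10811 members were enriched in the other 3 libraries. Another 2758 (11.3%) were enriched in none, against 44.9% of all narrow domains. The most frequent pattern, with 7991 members (32.7%), was enriched in both control libraries and in ear003 but not in bham480, against 14.5% of all narrow domains. Narrow domains of gene bodies and of promoters inside domains of bham470 came close to the members. Of these 12.2% and 12.6% were enriched in all 4 libraries, and 10.9% and 9.02% in none. The most frequent pattern held for 33.4% and 34.3% of them. Only 367 members (1.502%) were enriched in both control libraries and background in both TDG KD libraries, beside 1.26% of all narrow domains. The reverse held for 138 (0.565%), beside 0.428%. Both shares are near those of all narrow domains.

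The members with the highest mean excess among those enriched over their whole length in all 4 siRNA libraries were all on chromosome 8, near Gdf15, a stress-induced cytokine, Slc38a8, an amino acid transporter, Mlycd, a malonyl-CoA decarboxylase, Hsbp1, a heat shock factor binding protein, and Fcho1, a protein of clathrin-coated pits. The member near Gdf15, chr8:73167019-73167818, had an excess per M reads of 0.0404 in bham479 and 0.0269 in ear001, and 0.0304 in bham480 and 0.0572 in ear003. Those near Slc38a8, Mlycd and Hsbp1 shared 1 value per library, 0.0402, 0.0246, 0.0318 and 0.0539, since each siRNA library gave all 3 a single domain. Outside chromosome 8, a choice made after the values were seen, the highest was the member near Plec, chr15:75992797-75993496, with 0.0310, 0.0145, 0.0381 and 0.0507 and 46.9% GC. It was enriched in all 4 libraries and its excess in both TDG KD libraries exceeded that in both control libraries.

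The members of the pattern found in the control only and with the largest difference in excess were near Kcnj1, a potassium channel, Cckar, a cholecystokinin receptor, and Gm20410, a predicted gene. Near Kcnj1, at chr9:32168924-32169323, the excess was 0.0158 in bham479 and 0.00513 in ear001, against -0.0249 in bham480 and -0.0167 in ear003. The reverse pattern was largest near 5830473C10Rik, at chr5:91026085-91026784, with -0.000357 and -0.000270 in the control and 0.0169 and 0.0697 in the TDG KD. It was followed by members near Syf2, a splicing factor, and Asxl2, a Polycomb-associated protein. These members were picked by the difference they show, so it is given without a test.

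The nearest protein-coding TSS was a median of 51.4 kb from the members, and 56.2% of members lay upstream of it. Of 21281 autosomal protein-coding genes, 4967 (23.3%) were nearest to at least 1 member, with a median of 3 members per such gene. As genes with much intergenic sequence around them collect more domains, each list is also given by the share of its distal intergenic narrow domains that were members, which was 26.9% over all genes. The lists are those of known regulators and are described by counts alone.

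Members were found near most pluripotency genes. Of 26 genes of the list 17 (65.4%, beside 23.3% of all genes) were nearest to at least 1 of 217 members, and 39.2% of their 554 distal intergenic narrow domains were members. Tbx3, a T-box factor of self-renewal, had 53 members of 85 such domains, from 22.3 to 540.1 kb away and 46 of them upstream. Sox2, a core factor of the ES cell state, had 45 of 105 in 13 domains of bham470, all downstream and the closest 33.0 kb away. Klf4 had 22 of 80, all upstream and none closer than 116.5 kb. Esrrb, a nuclear receptor of naive ES cells, and Tcl1, a coactivator of Akt, had 16 members each, of 22 and 19 domains, and Prdm14, which restrains DNA methylation in ES cells, had 9 of 11. Sall4, a zinc finger factor of ES cells, had 8 of 9. Klf5 and Nr5a2 had 9 members each, of 67 and 61 domains. Nanog had 3 of 5. Zfp42 had 0 of 9 and Lefty2 0 of 2. Pou5f1, which encodes Oct4, was nearest to no distal intergenic narrow domain and so had no member.

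In the siRNA libraries these genes differed. Of the 16 members of Esrrb 15 were enriched in bham479, 14 in ear001 and 14 in ear003, and none in bham480, where 15 were unconfident. Of the 45 of Sox2 31 were enriched in bham479 and 16 in ear001, and 1 in bham480 and 25 in ear003. All 16 members of Tcl1 were enriched in ear001, 15 in ear003 and 11 in bham479. Of the 10 members of Otx2, a factor of the exit from the naive state, 5 were enriched in bham479, 1 in ear003 and none in ear001 or bham480. Over the list 70.5% of members were enriched in bham479 and 58.5% in ear001, and 2.30% in bham480 and 68.2% in ear003, beside 69.98%, 62.3%, 16.0% and 70.3% of all members. The shares lay near those of all members except in bham480. Without chromosome 8 that library called 1.85% of the members of the list enriched, beside 12.3% of all members. It left 71.3% of the members of the list outside chromosome 8 unconfident, beside 57.9% of all members with chromosome 8 included.

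The closest members to pluripotency genes were near Klf2, 10.2 kb downstream of its TSS on chromosome 8, and near Nr5a2, Mycn and Fgf4. The member near Klf2, chr8:74853119-74854518, was enriched in all 4 siRNA libraries, with an excess of 0.0275 in bham479 and 0.0190 in ear001, and 0.0188 in bham480 and 0.0367 in ear003. The member near Nr5a2 was enriched in ear001 alone, and the member near Mycn in bham479 alone. The member near Fgf4, whose sequence is shown above, was enriched in both control libraries and in ear003 and unconfident in bham480.

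Regulators of germ layers and lineages were nearest to 264 members, through 22 of 27 genes (81.5%, beside 23.3% of all genes). Members made up 30.8% of their 856 distal intergenic narrow domains, beside 26.9% over all genes. Without chromosome 8 they made up 23.4% of 722, beside 26.02% over all genes. The homeobox genes Irx3 and Irx5 on chromosome 8 had 73 and 18 members, and in bham480 all 91 of these were enriched. Tshz3, a zinc finger factor, had 43 of 150 domains and Tshz1 22 of 104. Tbx5 had 19 of 24, Lhx2 8 of 8, Gsc 7 of 7 and T, the Brachyury gene of mesoderm, 8 of 10. Others with much intergenic sequence had few, with 1 of 34 for Meis2, 3 of 40 for Foxa2, 1 of 22 for Sox17 and 2 of 40 for Nr2f1. Members near Foxa2, Nr2f1 and Meis2 were enriched in none of the siRNA libraries.

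Over this list 76.5% of members were enriched in bham479 and 60.2% in ear001, and 44.7% in bham480 and 78.8% in ear003. Without chromosome 8 the shares were 63.3%, 37.9%, 16.0% and 68.6% over 169 members, beside 66.96%, 58.5%, 12.3% and 67.7% of all members outside chromosome 8. The member near Hand1, chr11:57633623-57634022, was enriched in all 4 libraries with an excess of 0.0261 in bham479 and 0.00571 in ear001, and 0.0224 in bham480 and 0.0299 in ear003. The member near Pax3, chr1:78204939-78205238, was background in all 4. The member near Gsc, a factor of the organizer, was enriched in both control libraries and ear003, and the closest of Lhx2 in ear001 alone.

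Genes of DNA methylation, oxidation and repair had few members, and few distal intergenic narrow domains that could be members. Of 17 genes 5 (29.4%, beside 23.3% of all genes) were nearest to 20 members. These were Parp1 with 6, Tet2 and Smug1 with 5 each, Dnmt3a with 3 and Tet3 with 1. Tdg had none, and it was nearest to no distal intergenic narrow domain. Members made up 33.9% of the 59 distal intergenic narrow domains of the list, beside 26.9% over all genes. The 3 members of Dnmt3a lay 10.5, 12.5 and 17.4 kb downstream of its TSS in 1 domain of bham470. Of these 3 were enriched in bham479, 2 in ear001, 2 in ear003 and none in bham480, where 2 were unconfident. The member of Tet3 was enriched in both control libraries and ear003. All 5 members of Smug1, a uracil DNA glycosylase, were enriched in both control libraries and ear003 and unconfident in bham480. None of the 5 of Tet2, an oxidizing enzyme, was enriched in any siRNA library, and 4 of them were unconfident in bham480.

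Several of the genes nearest to the most members were neighbors of each other. Cadm1, a cell adhesion molecule, had 99 members, 67.3% of its distal intergenic narrow domains, and its neighbor 4931429L15Rik had 69 (66.3%). Over all genes this share was 26.9%. The members of both genes fill 1.69 Mb of chromosome 9 at chr9:46177624-47871523 with 99.2 members per Mb in 32 domains of bham470. Of these 168 members 82.7% were enriched in bham479 and 77.4% in ear001, and 3.57% in bham480 and 83.3% in ear003, and 82.7% were unconfident in bham480. Over all members the shares enriched were 69.98%, 62.3%, 16.0% and 70.3% in the same order, and 57.9% were unconfident in bham480. Fam19a5, which encodes a secreted chemokine-like protein, had 94 members (53.4% of its distal intergenic narrow domains) and 3110018I06Rik 66 (49.6%). With Tbc1d22a, Fam19a5 accounts for 149 members in 1.63 Mb of chromosome 15, of which 71.8% were enriched in bham479 and 49.7% in ear001, and 12.8% in bham480 and 78.5% in ear003. With Vrk1, a kinase, 3110018I06Rik accounts for 126 members in 1.75 Mb of chromosome 12, enriched at 63.5%, 57.9%, 9.52% and 69.8% in the same order.

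Irx3 was the third of these genes. Its 73 members, 88.0% of its distal intergenic narrow domains, lay 11.8 to 275.8 kb from its TSS in 6 domains of bham470, 51 of the members upstream. All 73 were enriched in bham479, ear001 and bham480, and 70 in ear003. With Irx5 there were 91 members in 0.842 Mb, 108.1 per Mb. Of the other genes with many members on chromosome 8, Maf, a leucine zipper factor, had 58 of 146 domains and Zfp703 57 of 81. Of these members 37.9% and 28.1% were enriched in bham480. Irx3 and Irx5 thus stood above those genes in this library.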

How the data were processed

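The 6 pulldown libraries are 2 replicates of wild type, siRNA control and TDG KD, given as biological replicates. The authors mapped the single-end reads with BWA to the mm9 genome (version 0.6.1 per the submitters' notes on processing) and retained those placed uniquely. rseg then called each library's domains in 100 bp bins, with the single input as background. As the authors deposited it, a domain's value is a score, pulldown minus input reads averaged over its bins, with no scaling for depth. Depth, 20.4 to 45.9 M reads, was read from the study's supplement. Read counts per region were not used, so no counting interval is given, and precision rests on 2 libraries per condition.

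Overlaps, distances and composition were computed with Python 3.11.15, NumPy 2.4.6, pandas 2.3.3 and SciPy 1.17.1 and drawn with Matplotlib 3.10.9, and were tested on simulated data. Where several domains met in a region their values were weighted by length. Genes were those of GENCODE M1, and sequence that of NCBIM37 (mm9), without repeat masks. A CpG ratio is observed over expected CpG. Shares over libraries were compared by exact permutation. The members, gene lists and tests were chosen with earlier results of these data known.

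Named regions were the 5 members of highest mean excess enriched in all 4 siRNA libraries, the 5 richest in CpG, up to 4 closest to genes of each of 3 lists, up to 3 of each pattern specific to an siRNA condition, those at the limits of the rule, and the 5 genes nearest to the most members. Other genes named are members of the lists or neighbors of these. Alternatives varied the overlap, width, distance, annotation, caller threshold, chromosome 8 and libraries. Sex chromosomes, read counts, expression and chromatin data were not analysed here. Domain files alone were used.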

Additional observations from a re-analysis of the deposited data

Results flagged for a closer look

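The difference between TDG KD and siRNA control over the members went opposite ways under the prefixes of the library names. In the share of members enriched it was -54.0 points within BHAM and 7.93 points within EAR. In mean excess it was -0.00440 reads per bin per M reads within BHAM and 0.00878 within EAR. Each prefix holds 1 library per condition, so the difference between the prefixes was not tested. The TDG KD library under BHAM, bham480, is the one with 57.9% of members unconfident and with the fewest reads. With 2 libraries per condition, no group was large enough to look for single libraries far from the rest.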

How the results depend on the processing

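The difference between members and the comparison set stayed positive in all 15 alternatives, from 30.5 to 49.8 percentage points. That between members and the pooled rest of the domains that hold members did so in all 8 planned ones, from 0.0126 to 5.43. Against windows of 700 bp, added later, the latter was 3.88 points at any GC and -2.08 points at 40 to 45%, -1.70 at 45 to 50% and -1.82 at 50 to 55%, each a mean over 4 libraries. The difference in share between TDG KD and control was 7.93 points within EAR and ranged from -50.2 to 4.11 with each library left out. It was -12.2 with unconfident members left out per library, and its other alternatives kept the negative sign. The difference in mean excess was -0.00440 within BHAM, -0.00582 without taking off the library mean, and -0.00189 to 0.00627 with each library left out. The number of members enriched in all 4 siRNA libraries was 1594 without the 25% of domains of lowest value, 1682 without chromosome 8, 646 with 1 member per domain of bham470, 1324 for 300 to 700 bp and 1496 for 800 to 1500 bp. It was 2954 to 10811 with each library left out. The number of members was 12571 for 300 to 700 bp, 11871 for 800 to 1500 bp and 11547 without the 25% of wild-type domains of lowest value, and their median GC was then 48.8%, 48.6% and 49.25%. With 1 member per domain of bham470 it was 48.5%. No paired analysis was possible because the labels number no replicates, and differences within the name prefixes are given instead. The cause of these changes was not tested, apart from the smaller number of domains that several alternatives leave. The width of the domains differs between libraries, and with 2 libraries per condition the exact permutation test cannot pass a threshold of 0.05.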

Other observations

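Genes outside the regulatory lists differed as widely. Of 30 genes of axon guidance and adhesion 10 (33.3%, beside 23.3% of all genes) were nearest to a member. Yet only 23 of their 646 distal intergenic narrow domains, 3.56%, were members, against 26.9% over all genes. Of these 23 members 30.4% were enriched in bham479 and in ear003, 8.70% in ear001 and none in bham480. Over all members the shares were 69.98% in bham479, 70.3% in ear003, 62.3% in ear001 and 16.0% in bham480. Robo1, a guidance receptor, had 1 member of 49 domains, Epha4 3 of 79, Efna5, an ephrin, 2 of 60, and the cadherin genes Cdh2, Cdh8 and Cdh9 none of 39, 31 and 44. Slit3 and Nrp2 had 5 of 17 and 4 of 14.

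Olfactory receptor genes were nearest to members in 23 of 1106 cases (2.08%, beside 23.3% of all genes). Of their 436 distal intergenic narrow domains 10.3% were members, beside 26.9% over all genes. Of these 45 members 35.6% were enriched in bham479 and 31.1% in ear001, and 8.89% in bham480 and 48.9% in ear003, in each library below the share of all members. Genes expressed in fibroblasts, the cell type of the feeder layer, were nearest to 59 members through 8 of 20 genes (40%, beside 23.3% of all genes). Members made up 33.5% of their 176 distal intergenic narrow domains, beside 26.9% over all genes. Of these 59 members 79.7% were enriched in bham479, 74.6% in ear001 and 76.3% in ear003, and 23.7% in bham480. The last stands beside 16.0% of all members and 12.3% of those outside chromosome 8, on which none of the 59 lies. In bham480 all 10 members near the collagen gene Col5a1, which lay in 2 domains of bham470, were enriched, and 3 of the 12 near Twist2. None of the 15 near Pdgfra, the 10 near Thy1 or the 5 near Loxl1 was enriched there. Of these, 12, 10 and 5 in the same order were unconfident in that library.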
